A study of Mus musculus with 10 samples.

Results

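Interferon-stimulated genes were examined in sorted CD4+ T cells of the mouse spleen as a set of 47 named genes. The set held antiviral effectors, nucleic acid sensors, transcription factors, interferon-inducible GTPases and surface proteins, and the probe set of a gene whose mean over the 10 arrays was highest stood for that gene. Of the 47, 43 had a probe set with a single gene name among the 17097 genes so represented. The levels of Isg15, Oas1a, Ifi44 and Bst2 were not analysed here. Oasl2 and Eif2ak2 were set aside as dim, which left 41 of the 11037 genes tested. Both lay under the array median on all 10 arrays.

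The 10 arrays carried RNA of spleen CD4+ cells of DBA/1 mice, an inbred strain used in arthritis models. CD49b+ cells (n = 3), carrying the integrin alpha 2 chain, CD25+ cells (n = 3), carrying the interleukin 2 receptor alpha chain, and CD4+ cells (n = 2) came from mice injected intraperitoneally with 500000 immature dendritic cells on each of 3 occasions, 7, 5 and 3 days before euthanasia, and CD4+ cells of naive mice (n = 2) came from mice without injection. CD4+ cells were enriched by negative selection on magnetic beads, labelled with antibodies to CD4, CD49b and CD25, and separated by flow cytometry. Cells of several mice were pooled before sorting, and neither separate pools for the replicates of a group nor a depletion of CD49b+ and CD25+ cells from the CD4+ samples is stated in the labels. The p-values thus measure the spread between these arrays, which may be technical. Values are log2 levels, where 1 unit is a 2-fold change, and differences are given with the standard error (SE) of the limma fit and the Benjamini-Hochberg adjusted p over all genes tested. Genes with an adjusted p under 0.05 are termed called.

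Type I interferons signal through the receptor of Ifnar1 and Ifnar2 and the kinases Jak1 and Tyk2 to a complex that holds Stat2 and Irf9 and binds the interferon-stimulated response element (ISRE). Interferon gamma signals through Ifngr1 and Ifngr2 to the gamma-activated site (GAS) of its target genes, and induces Irf1, guanylate-binding proteins (GBPs) and immunity-related GTPases (IRGs). The products block entry, replication or spread of viruses and intracellular bacteria, and in T cells several of them are present without infection.

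The regulatory sequence upstream of 7 members that were called and lie beside each other in the genome is shown first, so that neighbours can be compared: Ifitm2, Ifitm1 and Ifitm3 are neighbours on chromosome 7, Gbp7 and Gbp3 on chromosome 3, and Rsad2 and Cmpk2 on chromosome 12. Ifit1 is added as a member that was not called in any comparison with all arrays kept and no replicate block. The 120 bases before the transcription start are given for each, 5′ to 3′ on the strand of the gene, from the RefSeq annotation of the reference mouse genome (GRCm38.p6), which is not that of DBA/1. Capitals mark the ISRE core, here 2 copies of GAAA with any 2 bases between them, on either strand.
Ifitm1, chr7:140967956-140968075, plus strand: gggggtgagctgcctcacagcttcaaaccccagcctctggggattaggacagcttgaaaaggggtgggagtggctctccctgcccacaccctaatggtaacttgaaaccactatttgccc
Ifitm2, chr7:140955962-140956081, minus strand: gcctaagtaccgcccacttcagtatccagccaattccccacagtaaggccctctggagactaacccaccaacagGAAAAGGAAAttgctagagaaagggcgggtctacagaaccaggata
Ifitm3, chr7:141010745-141010864, minus strand: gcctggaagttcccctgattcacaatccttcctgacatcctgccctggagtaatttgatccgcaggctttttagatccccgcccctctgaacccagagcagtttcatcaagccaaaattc
Ifitm3, 27 bases just after the start, chr7:141010716-141010742, minus strand: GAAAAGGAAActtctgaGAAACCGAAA
Gbp3, chr3:142559924-142560043, plus strand: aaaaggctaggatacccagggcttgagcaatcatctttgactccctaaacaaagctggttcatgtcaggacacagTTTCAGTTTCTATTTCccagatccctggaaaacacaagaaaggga
Gbp7, chr3:142530216-142530335, plus strand: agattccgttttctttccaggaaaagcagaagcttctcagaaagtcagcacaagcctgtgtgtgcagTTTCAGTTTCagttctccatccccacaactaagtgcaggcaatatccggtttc
Rsad2, chr12:26456453-26456572, minus strand: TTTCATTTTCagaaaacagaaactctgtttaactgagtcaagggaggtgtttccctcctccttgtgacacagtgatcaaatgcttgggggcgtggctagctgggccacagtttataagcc
Cmpk2, chr12:26469095-26469214, plus strand: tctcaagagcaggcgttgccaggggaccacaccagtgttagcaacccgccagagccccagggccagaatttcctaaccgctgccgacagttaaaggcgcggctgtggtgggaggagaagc
Ifit1, chr19:34640769-34640888, plus strand: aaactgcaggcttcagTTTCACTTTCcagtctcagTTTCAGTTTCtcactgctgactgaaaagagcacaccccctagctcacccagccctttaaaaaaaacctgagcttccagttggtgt

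Windows from 250 bases before to 50 bases after the start were held for 36 of the 47 members. Among these were Isg15, Oas1a, Ifi44, Bst2, Oasl2 and Eif2ak2, whose levels were not tested. The ISRE core, searched on both strands with overlapping matches allowed, was found in 18 of the 36 (50%), against 3.99% of 27025 genes with such a window. The GAS motif TTCNNNGAA, also searched on both strands, was found in 11 of the 36 (30.6%), against 9.55% of those genes. By role, the ISRE core was found in 5 of 6 GBP and IRG genes, 2 of 3 Ifit genes, 2 of 3 Ifitm genes, 2 of 2 sensors of RNA and DNA and 2 of 4 Oas genes. It was found in 1 of 2 Trim genes, in Isg15 but not Isg20, in 2 of 7 other antiviral genes and in 1 of 4 transcription factors. No match lay in the windows of 2 Parp and Dtx3l genes and of 1 secreted or surface gene. Gbp3 held 2 overlapping matches, Ifit1 held 2 separate ones, and Ifitm1 and Cmpk2 held none of these letters in their windows. A match is a description of the letters and not a bound site.

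Members were called higher and lower in all 3 comparisons among cells of injected mice. In RNA of sorted cells, fewer cells expressing a gene and less RNA per cell cannot be told apart. In CD49b+ against CD4+ cells, 18 of the 41 were higher (43.9%) and 5 lower (12.2%), where 29.9% of all genes tested were higher and 23.5% lower. For CD25+ against CD4+ cells, 14 were higher (34.1%) and 2 lower (4.88%), where 20.8% of all genes were higher and 17.8% lower. In CD49b+ against CD25+ cells, 14 were higher (34.1%) and 7 lower (17.1%), where 17.5% of all genes were higher and 12.4% lower. Between CD4+ cells of injected and naive mice, 0 were called in each direction, where 0.0272% of all genes were higher and 1.36% lower. The median log2 difference of the members was 0.16, 0.23, -0.05 and -0.12 in these comparisons, beside 0.03, 0.02, 0.03 and -0.03 over all genes tested. The shares over all genes depend on the level required for testing. With that level raised to the 70th percentile of the array, 35 members and 7530 genes were tested. For CD25+ against CD4+ cells, 13 members were then higher and 0 lower, beside 1801 and 699 of all genes. For CD49b+ against CD4+ cells, 16 were higher and 5 lower, beside 2790 and 1230. Members were not compared with genes of like level.

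The 2 comparisons against CD4+ cells of injected mice share the same 2 CD4+ arrays. In them, 10 members were higher in both subsets, 0 were lower in both, and 3 were called in opposite directions: Oas3, higher in CD49b+ and lower in CD25+ cells, and Iigp1 and Samhd1, lower in CD49b+ and higher in CD25+ cells. The shares of all genes called jointly in these ways were not counted, so it is not known how common such joint calls are. Counted by arrays that did not overlap, 19 members were higher and 6 lower in CD49b+ against CD4+ cells (37.3% and 33% of all genes tested), 19 higher and 4 lower for CD25+ against CD4+ cells (31% and 27.9%), and 13 higher and 12 lower in CD49b+ against CD25+ cells (24.3% and 17.3%). Called differences of at least 2-fold numbered 12 higher and 2 lower in CD49b+ against CD4+ cells (7.05% and 2.61% of all genes tested). Such differences numbered 5 higher and 0 lower for CD25+ against CD4+ cells (5.08% and 1.36%). They numbered 5 higher and 1 lower in CD49b+ against CD25+ cells (2.51% and 2.58%). Some called members had further probe sets. The call was seen in the chosen probe set alone for 8 of 9 such members in CD49b+ against CD4+ cells, 3 of 6 for CD25+ against CD4+ cells and 5 of 8 between the subsets. A further probe set was called in the opposite direction for 0 of them. The count of lower members in CD49b+ against CD4+ cells was 3 without CD4+ replicate 1 of the injected mice, where the median difference was 0.36. Lower calls over all genes were then 1829, against 2592 with all arrays. That count in CD25+ against CD4+ cells was 1 without CD4+ replicate 1 or 2 or CD25+ replicate 1. Over all genes it was 1263, 1225 and 1665 there, against 1964. In CD49b+ against CD25+ cells, lower members numbered 11 without CD25+ replicate 3, and 12 with the replicate number as a block. Over all genes, lower calls were 1402 and 1677 there, against 1371.

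**Figure D1:**
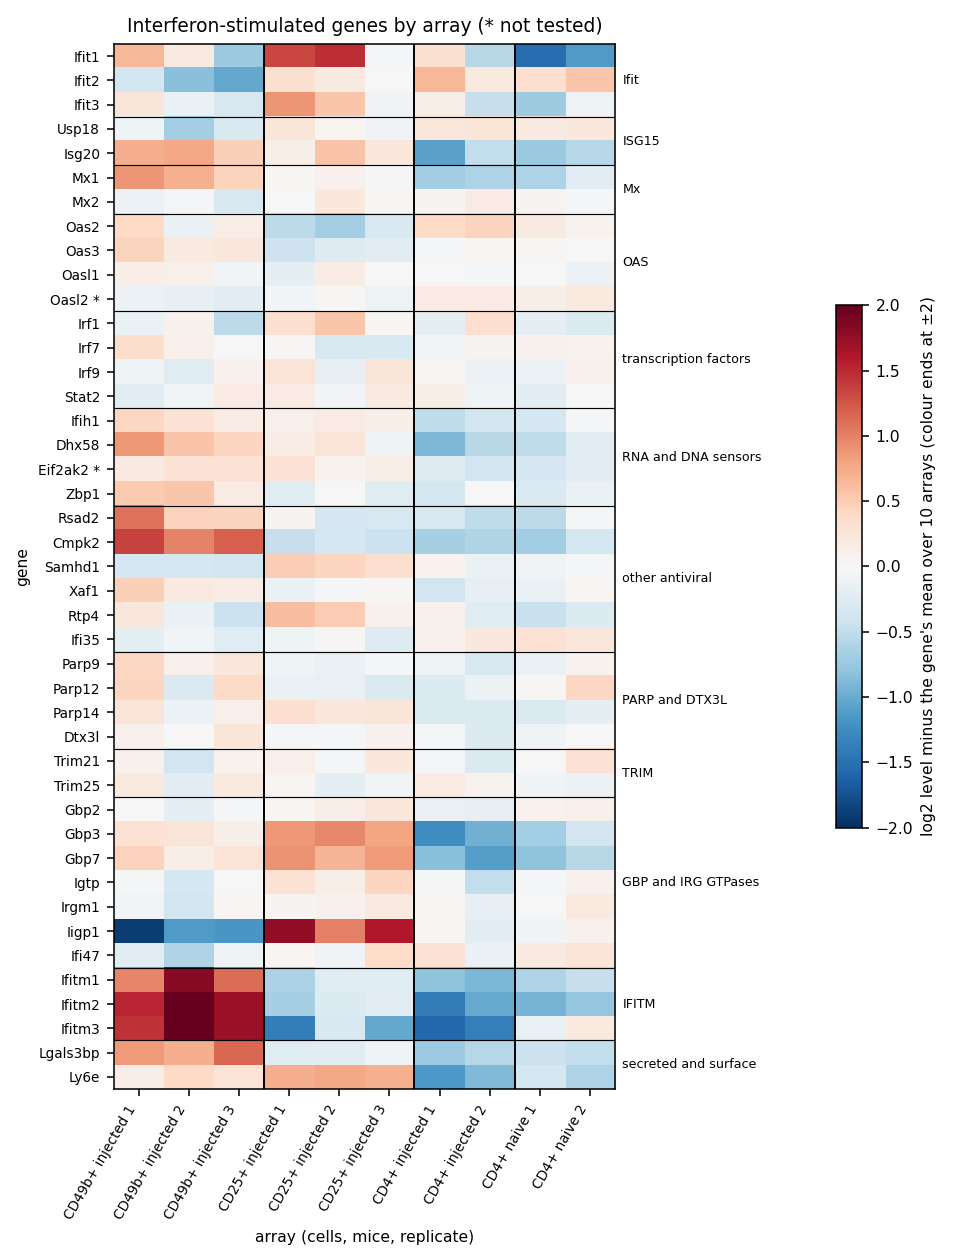
Heat map of the 43 members with a probe set (down, grouped by role) on the 10 arrays (across, by cells, mice and replicate); colour gives the log2 level minus the mean of that gene over the 10 arrays. The Ifitm genes, Cmpk2 and Lgals3bp are high on the 3 arrays of CD49b+ cells, and Iigp1 is high on the 3 of CD25+ cells and low on the 3 of CD49b+ cells.

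The Ifitm genes encode small membrane proteins that hinder the fusion of viruses with host cells. All 3 were higher in CD49b+ cells than in both other groups of injected mice, with differences among the largest of the set. Ifitm3 measured 8.15, 9.16 and 8.43 in CD49b+ cells, 5.33, 6.40 and 5.69 in CD25+ cells, 5.14 and 5.35 in CD4+ cells of injected mice and 6.56 and 6.90 in those of naive mice. The CD49b+ arrays lay above all others, the CD25+ and CD4+ arrays of injected mice overlapped, and the naive arrays lay above both of these. It was higher in CD49b+ than in CD4+ cells of injected mice by 3.34 ± 0.33 (SE), a 10.1-fold difference (adjusted p = 3.41e-05), and higher than in CD25+ cells by 2.78 ± 0.29 (adjusted p = 9.77e-05). Ifitm3 was not called in CD25+ against CD4+ cells (0.56 ± 0.33, adjusted p = 0.205), except with the replicate number as a block (0.63, adjusted p = 0.0278).

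Ifitm2 measured 7.34, 7.84 and 7.53 in CD49b+ cells, 5.16, 5.55 and 5.59 in CD25+ cells, 4.42 and 4.81 in CD4+ cells of injected mice and 4.89 and 5.04 in those of naive mice. The CD49b+ arrays stood apart from all the others, and the CD25+ arrays lay above the 4 CD4+ arrays. CD4+ cells of injected mice averaged under the median of their arrays, so that differences against them may be lower bounds: 2.96 ± 0.18 in CD49b+ cells (adjusted p = 1.7e-06) and 0.82 ± 0.18 in CD25+ cells (adjusted p = 0.00599). The call in CD25+ cells did not hold without CD4+ replicate 1 (0.63, adjusted p = 0.0636). Ifitm2 was higher in CD49b+ against CD25+ cells by 2.14 ± 0.16 (adjusted p = 1.09e-05). Ifitm1 measured 6.97, 7.82 and 7.12 in CD49b+ cells, 5.36, 5.75 and 5.76 in CD25+ cells, 5.20 and 5.09 in CD4+ cells of injected mice and 5.38 and 5.54 in those of naive mice. Again the CD49b+ arrays lay above all the others. Ifitm1 was higher in CD49b+ cells by 2.16 ± 0.22 against CD4+ cells (adjusted p = 4.52e-05) and by 1.68 ± 0.20 against CD25+ cells (adjusted p = 0.000195), and it was not called in CD25+ against CD4+ cells (0.48 ± 0.22, adjusted p = 0.117). The Ifitm genes are similar in sequence, and sharing of probes between them was not tested.

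Rsad2, or viperin, makes a nucleotide that ends viral RNA chains, and its neighbour Cmpk2 encodes a mitochondrial nucleotide kinase that can supply its substrate. Cmpk2 measured 7.70, 7.35 and 7.55 in CD49b+ cells, 5.90, 6.01 and 5.93 in CD25+ cells, 5.69 and 5.75 in CD4+ cells of injected mice and 5.66 and 6.01 in those of naive mice. The CD49b+ arrays lay above all the others, which lay close together. Cmpk2 was higher in CD49b+ cells by 1.81 ± 0.13 against CD4+ cells (adjusted p = 3.92e-06) and by 1.59 ± 0.11 against CD25+ cells (adjusted p = 7.39e-06). Its other probe set differed by 0.27 and 0.16 in these comparisons and was called in neither. Rsad2 averaged 6.40 ± 0.36 (SD, n = 3) for CD49b+ and 5.54 ± 0.22 (SD, n = 3) in CD25+ cells, against 5.32 ± 0.13 (SD, n = 2) in CD4+ cells of injected mice. Its level in CD49b+ cells exceeded that in CD4+ cells by 1.08 ± 0.22 (adjusted p = 0.00243) and that in CD25+ cells by 0.86 ± 0.19 (adjusted p = 0.00782). Of its other probe sets 1 was dim, and the other differed by 0.20 in the first comparison, where it was not called, and by 0.52 in the second, where it was.

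Lgals3bp encodes a secreted glycoprotein that binds galectin 3, and Ly6e a lipid-anchored surface protein of lymphocytes. Lgals3bp measured 8.18, 8.05 and 8.47 in CD49b+ cells, 7.09, 7.11 and 7.26 in CD25+ cells, 6.60 and 6.76 in CD4+ cells of injected mice and 6.90 and 6.83 in those of naive mice. No 2 of the groups of injected mice overlapped. The difference was 1.56 ± 0.12 in CD49b+ against CD4+ cells (adjusted p = 9.19e-06), 0.47 ± 0.12 in CD25+ against CD4+ cells (adjusted p = 0.0133) and 1.08 ± 0.11 in CD49b+ against CD25+ cells (adjusted p = 7.49e-05). Of these, the call in CD25+ against CD4+ cells did not hold without CD4+ replicate 1 (0.39, adjusted p = 0.102). Ly6e measured 10.55, 10.82 and 10.70 in CD49b+ cells, 11.15, 11.20 and 11.13 in CD25+ cells, 9.27 and 9.54 in CD4+ cells of injected mice and 10.08 and 9.80 in those of naive mice. The CD25+ arrays were the highest and the CD4+ arrays of injected mice the lowest. It was higher by 1.28 ± 0.12 in CD49b+ (adjusted p = 2.5e-05) and by 1.76 ± 0.12 in CD25+ cells (adjusted p = 6.17e-06) than in CD4+ cells, and lower in CD49b+ than in CD25+ cells (-0.47 ± 0.11, adjusted p = 0.00861). By the name of its probe set (suffix s_at), the probes of Ly6e can detect more than a single transcript.

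**Figure D2:**
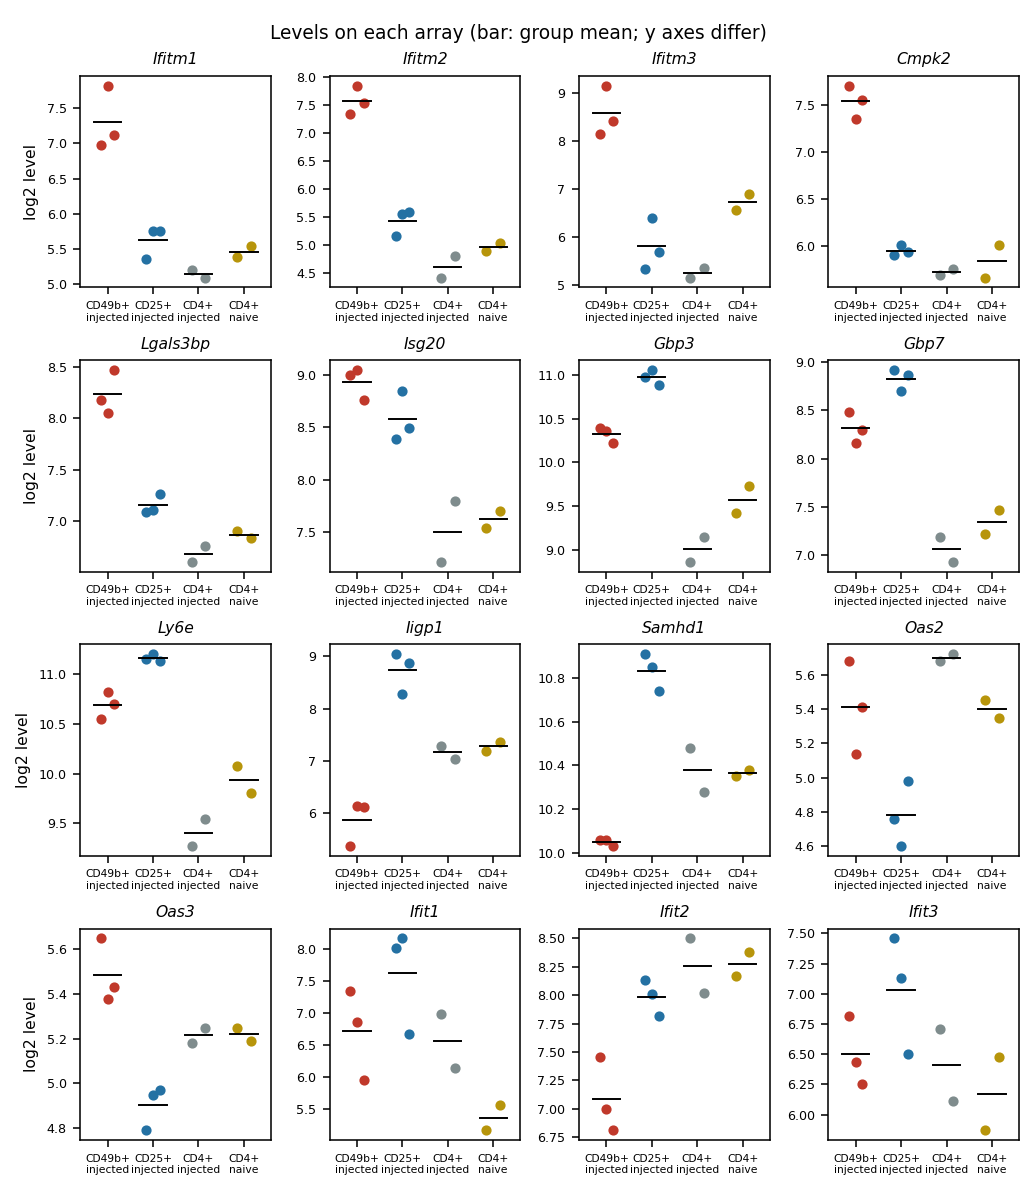
Log2 level of 16 members on each array (points) with the group mean (bar), from left to right CD49b+, CD25+ and CD4+ cells of injected mice and CD4+ cells of naive mice; the vertical axes differ. Ifitm3 lies between 8.15 and 9.16 in CD49b+ cells, above all other arrays, while Iigp1 lies between 8.28 and 9.04 in CD25+ cells and between 5.37 and 6.13 in CD49b+ cells.

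The GBPs and IRGs are GTPases that attack the vacuoles of intracellular pathogens and are typical targets of interferon gamma. In CD25+ against CD4+ cells, 5 of the 7 were higher and 0 lower (20.8% and 17.8% of all genes tested), and in CD49b+ against CD4+ cells 2 were higher and 1 lower (29.9% and 23.5%). In CD49b+ against CD25+ cells, 0 were higher and 3 lower (17.5% and 12.4%). Gbp3 measured 10.39, 10.36 and 10.22 in CD49b+ cells, 10.98, 11.06 and 10.89 in CD25+ cells, 8.86 and 9.15 in CD4+ cells of injected mice and 9.42 and 9.73 in those of naive mice. None of the 4 groups overlapped, with CD25+ cells at the top. The difference was 1.32 ± 0.12 in CD49b+ (adjusted p = 2.39e-05) and 1.97 ± 0.12 in CD25+ against CD4+ cells (adjusted p = 3.27e-06), and -0.65 ± 0.11 in CD49b+ against CD25+ cells (adjusted p = 0.00167). Its neighbour Gbp7 measured 8.48, 8.16 and 8.30 in CD49b+ cells, 8.92, 8.70 and 8.87 in CD25+ cells, 7.19 and 6.93 in CD4+ cells of injected mice and 7.22 and 7.47 in those of naive mice. The order of the groups was that of Gbp3. Gbp7 was higher by 1.25 ± 0.13 in CD49b+ (adjusted p = 4.39e-05) and by 1.77 ± 0.13 in CD25+ cells (adjusted p = 8.86e-06), and differed by -0.52 ± 0.12 in CD49b+ against CD25+ cells (adjusted p = 0.00735). The other probe set of Gbp7 was called in CD25+ against CD4+ cells (1.39), and not in CD49b+ against CD4+ (0.58) or CD25+ cells (-0.81).

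Iigp1, an IRG that coats the vacuoles of parasites, showed the largest fall in CD49b+ against CD25+ cells among the members tested. It measured 5.37, 6.13 and 6.11 in CD49b+ cells, 9.04, 8.28 and 8.87 in CD25+ cells, 7.29 and 7.04 in CD4+ cells of injected mice and 7.19 and 7.36 in those of naive mice. The CD49b+ arrays lay below and the CD25+ arrays above all 4 CD4+ arrays. The difference was -1.29 ± 0.26 in CD49b+ (adjusted p = 0.00251) and 1.57 ± 0.26 in CD25+ against CD4+ cells (adjusted p = 0.0013), and -2.86 ± 0.23 in CD49b+ against CD25+ cells (adjusted p = 1.86e-05), a 7.25-fold difference. The other probe set of Iigp1 was called in the same directions, with differences of -0.64, 1.87 and -2.51. Every one of the 3 calls held in all 17, 17 and 16 alternatives run for it.

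The other GTPases differed less. Gbp2 averaged 9.20 ± 0.09 (SD, n = 3) for CD49b+ and 9.40 ± 0.09 (SD, n = 3) in CD25+ cells, against 9.11 ± 0.00 (SD, n = 2) in CD4+ cells of injected mice. Igtp averaged 9.73 ± 0.19 and 10.13 ± 0.16 in the same subsets (SD, n = 3 each), against 9.60 ± 0.33 (SD, n = 2) in CD4+ cells. Both had higher levels in CD25+ cells than in CD4+ cells, Gbp2 by 0.29 ± 0.09 (adjusted p = 0.0249) and Igtp by 0.53 ± 0.16 (adjusted p = 0.0236). Gbp2 was no longer called without CD4+ replicate 1 (0.29, adjusted p = 0.0993) or 2 (0.28, adjusted p = 0.101) and without CD25+ replicate 2 (0.28, adjusted p = 0.051) or 3 (0.24, adjusted p = 0.0713). Igtp was no longer called without CD4+ replicate 2 (0.30, adjusted p = 0.214) and without CD25+ replicate 1 (0.52, adjusted p = 0.0537) or 3 (0.46, adjusted p = 0.0662). Both calls were also lost after quantile normalization (0.19, adjusted p = 0.117 for Gbp2 and 0.43, adjusted p = 0.0675 for Igtp), and the Gbp2 probe set (suffix x_at) can detect related transcripts. Irgm1 averaged 8.03, 8.26 and 8.10 and Ifi47 10.39, 10.81 and 10.77 in CD49b+, CD25+ and CD4+ cells of injected mice, and neither was called. With the replicate number as a block, Igtp (-0.40, adjusted p = 0.0153) and Ifi47 (-0.42, adjusted p = 0.0123) were lower in CD49b+ than in CD25+ cells. Igtp was also lower there without CD25+ replicate 2 (-0.49, adjusted p = 0.0422). With the block, Ifi47 was lower in CD49b+ than in CD4+ cells too (-0.50, adjusted p = 0.00743).

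**Figure D3:**
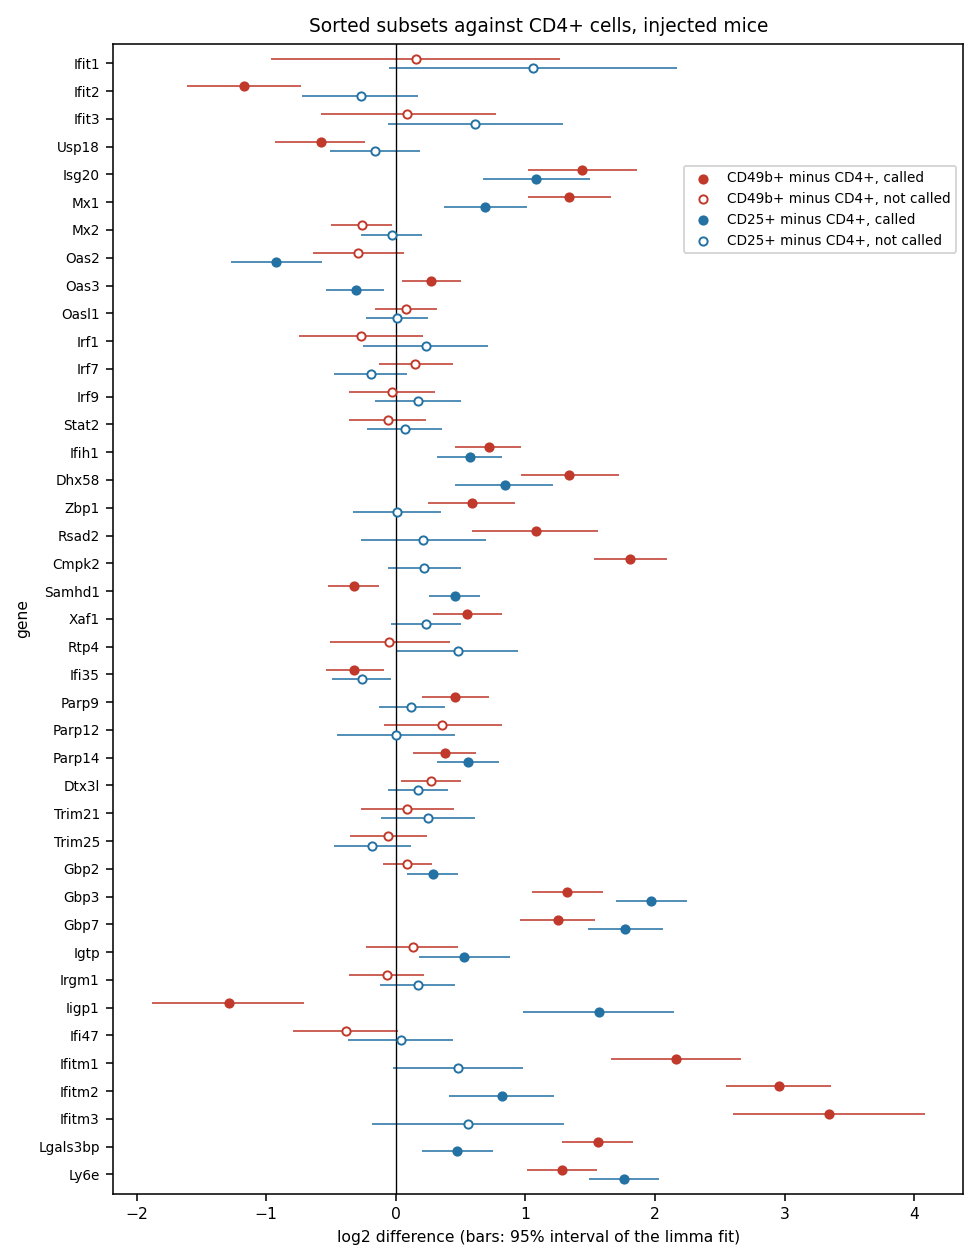
Log2 difference of each of the 41 tested members (down, by role) in CD49b+ (red) and CD25+ cells (blue) against CD4+ cells of injected mice, with the 95% interval of the limma fit; filled points are called and open points are not. The Ifitm genes, Cmpk2 and Lgals3bp reach further right in CD49b+ cells, Gbp3, Gbp7 and Ly6e in CD25+ cells, and Iigp1 lies on opposite sides of 0.

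The 2′-5′ oligoadenylate synthetases (OAS) sense double-stranded RNA and make the activator of RNase L. Neighbours Oas2 and Oas3 were lower in CD25+ cells and Oas3 higher in CD49b+ cells. Oas2 measured 5.68, 5.14 and 5.41 in CD49b+ cells, 4.76, 4.6 and 4.98 in CD25+ cells, 5.68 and 5.72 in CD4+ cells of injected mice and 5.45 and 5.35 in those of naive mice. The CD25+ arrays lay below all the others. The difference was -0.92 ± 0.16 in CD25+ against CD4+ cells (adjusted p = 0.0014) and 0.63 ± 0.14 in CD49b+ against CD25+ cells (adjusted p = 0.00739), and Oas2 was not called in CD49b+ against CD4+ cells (-0.29 ± 0.16, adjusted p = 0.139) except without CD49b+ replicate 1 (-0.43, adjusted p = 0.0308). Oas3 measured 5.65, 5.38 and 5.43 in CD49b+ cells, 4.79, 4.95 and 4.97 in CD25+ cells, 5.18 and 5.25 in CD4+ cells of injected mice and 5.25 and 5.19 in those of naive mice. The CD49b+ arrays lay above and the CD25+ arrays below the CD4+ arrays, by small amounts. The difference was 0.27 ± 0.10 in CD49b+ against CD4+ cells (adjusted p = 0.0421), -0.31 ± 0.10 in CD25+ against CD4+ cells (adjusted p = 0.0324) and 0.59 ± 0.09 in CD49b+ against CD25+ cells (adjusted p = 0.000914).

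Both Oas3 calls against CD4+ cells depended on single arrays. That of CD49b+ cells did not hold without CD4+ replicate 1 (0.24, adjusted p = 0.187) or 2 (0.31, adjusted p = 0.0891), or without CD49b+ replicate 1 (0.19, adjusted p = 0.119) or 3 (0.30, adjusted p = 0.0556). That of CD25+ cells did not hold without CD4+ replicate 1 (-0.35, adjusted p = 0.0836) or 2 (-0.28, adjusted p = 0.156), without CD25+ replicate 1 (-0.26, adjusted p = 0.0833), after quantile normalization (-0.19, adjusted p = 0.159) and with each array centred on its median (-0.15, adjusted p = 0.23). The Oas3 call between the subsets was kept in all 15 alternatives. Oasl1, a related protein, averaged 4.64 ± 0.10, 4.58 ± 0.17 and 4.56 ± 0.01 in CD49b+, CD25+ and CD4+ cells of injected mice (SD, n = 3, 3 and 2), close to the array medians, and was not called.

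Samhd1 breaks down deoxynucleotides and so limits reverse transcription by retroviruses. It measured 10.06, 10.06 and 10.03 in CD49b+ cells, 10.91, 10.85 and 10.74 in CD25+ cells, 10.48 and 10.28 in CD4+ cells of injected mice and 10.35 and 10.38 in those of naive mice. The 3 groups of injected mice did not overlap. The difference was -0.32 ± 0.09 in CD49b+ (adjusted p = 0.0103) and 0.46 ± 0.09 in CD25+ against CD4+ cells (adjusted p = 0.00258), and -0.78 ± 0.08 in CD49b+ against CD25+ cells (adjusted p = 6.1e-05). The call in CD49b+ against CD4+ cells did not hold without CD4+ replicate 1 (-0.23, adjusted p = 0.111), with each array centred on its median (-0.13, adjusted p = 0.224) and with the mean of its probe sets (-0.21, adjusted p = 0.0507).

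Among the sensors of viral nucleic acids, Ifih1 (MDA5) detects long double-stranded RNA, Dhx58 (LGP2) assists it, and Zbp1 binds left-handed nucleic acids. All 3 were higher in CD49b+ than in CD4+ cells. Ifih1 averaged 6.92 ± 0.13 (SD, n = 3) for CD49b+ and 6.78 ± 0.03 (SD, n = 3) in CD25+ cells, against 6.21 ± 0.10 (SD, n = 2) in CD4+ cells of injected mice. It was higher in both subsets, by 0.72 ± 0.11 (adjusted p = 0.000597) and 0.57 ± 0.11 (adjusted p = 0.00337). Dhx58 averaged 6.77 ± 0.23 and 6.26 ± 0.18 (SD, n = 3 each) in CD49b+ and CD25+ cells, against 5.43 ± 0.24 (SD, n = 2) in CD4+ cells. It was higher by 1.34 ± 0.17 (adjusted p = 0.00014) and 0.84 ± 0.17 (adjusted p = 0.00342) than in CD4+ cells. With the mean of its probe sets, of which the other 2 were dim, the value in CD25+ cells was 0.05 (adjusted p = 0.682).

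Dhx58 was also higher in CD49b+ than in CD25+ cells by 0.51 ± 0.15 (adjusted p = 0.0279), a call lost without CD49b+ replicate 1 (0.38, adjusted p = 0.0917) or 2 (0.54, adjusted p = 0.0537), or CD25+ replicate 1 (0.53, adjusted p = 0.063) or 3 (0.41, adjusted p = 0.0882). Zbp1 averaged 8.35 ± 0.22 (SD, n = 3) for CD49b+ cells and 7.77 ± 0.14 (SD, n = 3) in CD25+ cells, against 7.76 ± 0.25 (SD, n = 2) in CD4+ cells. It was higher in CD49b+ cells by 0.59 ± 0.15 against CD4+ (adjusted p = 0.00874) and by 0.57 ± 0.13 against CD25+ cells (adjusted p = 0.00963). The first of these Zbp1 calls did not hold without CD4+ replicate 1 (0.41, adjusted p = 0.0932), and the other probe set of Zbp1 differed by 0.17 and 0.14, called in neither.

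Isg20 is an exonuclease that degrades RNA, Mx1 and Mx2 are dynamin-like GTPases that trap viral nucleoproteins, and Usp18 removes the modifier ISG15 from proteins and dampens the type I interferon receptor. Isg20 measured 9, 9.05 and 8.76 in CD49b+ cells, 8.39, 8.85 and 8.49 in CD25+ cells, 7.21 and 7.79 in CD4+ cells of injected mice and 7.54 and 7.70 in those of naive mice. The subsets overlapped each other and lay above all CD4+ arrays. It was higher by 1.44 ± 0.19 in CD49b+ (adjusted p = 0.000178) and by 1.08 ± 0.19 in CD25+ cells (adjusted p = 0.00153) than in CD4+ cells. Between the subsets it differed by 0.36 ± 0.17 (adjusted p = 0.138), and by 0.36 with the replicate number as a block (adjusted p = 0.03).

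Mx1 averaged 5.65 ± 0.22 and 5 ± 0.05 in CD49b+ and CD25+ cells (SD, n = 3 each), against 4.31 ± 0.06 (SD, n = 2) in CD4+ cells of injected mice, which lay under the median of their arrays. The differences against CD4+ cells, 1.34 ± 0.14 in CD49b+ (adjusted p = 5.89e-05) and 0.69 ± 0.14 in CD25+ cells (adjusted p = 0.00442), may thus be lower bounds. Mx1 was higher in CD49b+ than in CD25+ cells by 0.65 ± 0.13 (adjusted p = 0.0042). Mx2 averaged 5.22, 5.45 and 5.48 in CD49b+, CD25+ and CD4+ cells of injected mice and was not called, although it was lower in CD49b+ than in CD4+ cells without CD49b+ replicate 2 (-0.32, adjusted p = 0.0429). Usp18 averaged 6.37 ± 0.30 and 6.79 ± 0.16 in CD49b+ and CD25+ cells (SD, n = 3 each), against 6.95 ± 0.01 (SD, n = 2) in CD4+ cells.

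Usp18 was lower in CD49b+ cells, with a difference of -0.58 ± 0.15 against CD4+ (adjusted p = 0.0104) and -0.42 ± 0.14 against CD25+ cells (adjusted p = 0.0443). The call against CD4+ cells did not hold without CD4+ replicate 1 (-0.59, adjusted p = 0.0501) and with arrays centred on their medians (-0.39, adjusted p = 0.0583). The call against CD25+ cells did not hold without CD49b+ replicate 2 (-0.26, adjusted p = 0.118) or 3 (-0.45, adjusted p = 0.0791), and without CD25+ replicate 1 (-0.34, adjusted p = 0.15) or 2 (-0.44, adjusted p = 0.0767).

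Ifit1, Ifit2 and Ifit3 encode proteins that bind viral RNA, and they are classical targets of type I interferon. Of the 3, limma's test without a replicate block called 0 higher in either subset against CD4+ cells (0 also at an unadjusted p under 0.05) and 1 lower in CD49b+ cells. Ifit2 averaged 7.09 ± 0.33 in CD49b+ and 7.99 ± 0.16 in CD25+ cells (SD, n = 3 each), against 8.26 ± 0.34 (SD, n = 2) in CD4+ cells of injected mice. The difference was -1.17 ± 0.20 in CD49b+ against CD4+ cells (adjusted p = 0.000926) and -0.90 ± 0.18 in CD49b+ against CD25+ cells (adjusted p = 0.00409), and Ifit2 was not called in CD25+ against CD4+ cells (-0.27 ± 0.20, adjusted p = 0.305). Ifit1 measured 7.35, 6.86 and 5.95 in CD49b+ cells, 8.02, 8.17 and 6.67 in CD25+ cells, 6.99 and 6.14 in CD4+ cells of injected mice and 5.16 and 5.56 in those of naive mice. Replicate 3 was the lowest in both subsets, and the groups of injected mice overlapped. Without a replicate block and with all arrays kept, Ifit1 was called in no comparison. Its differences were 0.16 ± 0.50 in CD49b+ (adjusted p = 0.805) and 1.06 ± 0.50 in CD25+ against CD4+ cells (adjusted p = 0.119). The interval of the second ran from -0.05 to 2.17. Without CD25+ replicate 3, Ifit1 was called higher in CD25+ than in CD4+ cells (1.53, adjusted p = 0.0202) and lower in CD49b+ than in CD25+ cells (-1.38, adjusted p = 0.0248).

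The pooled standard deviation of Ifit1 within groups was 0.68, the largest among the 41 members, beside a median of 0.18 over the members and 0.12 over all genes tested. Ifit3 averaged 6.51 ± 0.29 and 7.03 ± 0.49 in CD49b+ and CD25+ cells (SD, n = 3 each), against 6.41 ± 0.42 (SD, n = 2) in CD4+ cells, and was not called. Without CD25+ replicate 3, Ifit3 was also higher in CD25+ than in CD4+ cells (0.88, adjusted p = 0.0341) and lower in CD49b+ than in CD25+ cells (-0.79, adjusted p = 0.0421). Replicate 3 held the lowest array of both subsets for 10 of the 41 members (24.4%) and for 19.4% of all genes tested. The members were Ifit1, Ifit2, Ifit3, Mx1, Irf1, Ifi35, Dhx58, Rtp4, Gbp3 and Samhd1. In these same 2 arrays the transcripts added before labelling averaged 8.41 (CD49b+) and 8.23 (CD25+), against 5.32 to 6.72 on the other 8 arrays, and the part of this in the members' levels was not tested. With the replicate number as a block, Ifit1 was lower in CD49b+ than in CD25+ cells (-0.90, adjusted p = 0.00967).

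Of the 4 transcription factors, limma's test without a replicate block or centred arrays called 0 in either subset against CD4+ cells. At an unadjusted p under 0.05 there were also 0. Of all genes tested, 29.9% were higher and 23.5% lower for CD49b+ cells, and 20.8% and 17.8% for CD25+ cells. The replicate block added a call of Irf1 for CD25+ against CD4+ cells (0.39, adjusted p = 0.0348). Centring each array on its median added one of Irf7 for CD49b+ against CD4+ cells (0.35, adjusted p = 0.0458). Irf9, which averaged 8.37, 8.56 and 8.40 in CD49b+, CD25+ and CD4+ cells of injected mice, and Stat2, at 5.75, 5.89 and 5.81, are both part of the ISRE-binding complex. Neither was called in any comparison, and their differences against CD4+ cells lay between -0.06 and 0.17. Irf1, a target and mediator of interferon gamma, averaged 9.65, 10.15 and 9.92 and was not called. It was lower in CD49b+ than in CD25+ cells with the replicate number as a block (-0.50, adjusted p = 0.00614), without CD49b+ replicate 2 (-0.64, adjusted p = 0.0462) and without CD25+ replicate 3 (-0.64, adjusted p = 0.0381). Irf7, which amplifies type I interferon production, averaged 6.86 ± 0.18 and 6.51 ± 0.19 in CD49b+ and CD25+ cells (SD, n = 3 each), against 6.70 ± 0.08 (SD, n = 2) in CD4+ cells. In CD49b+ against CD25+ cells Irf7 was higher by 0.35 ± 0.12 (adjusted p = 0.0458). That Irf7 call did not hold without CD49b+ replicate 1 (0.25, adjusted p = 0.144) or 2 (0.37, adjusted p = 0.0754), and without CD25+ replicate 2 (0.29, adjusted p = 0.127) or 3 (0.30, adjusted p = 0.126).

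Parp9 and Dtx3l encode a complex that joins ubiquitin and ADP-ribose signals, Parp12 and Parp14 are related ADP-ribosyltransferases, and Parp14, Dtx3l and Parp9 lie side by side on chromosome 16. Parp14 averaged 8.70 ± 0.19 in CD49b+ and 8.88 ± 0.06 in CD25+ cells (SD, n = 3 each), against 8.32 ± 0.01 (SD, n = 2) in CD4+ cells of injected mice. Both subsets were higher, by 0.38 ± 0.11 (adjusted p = 0.0153) and 0.56 ± 0.11 (adjusted p = 0.00286). The call in CD49b+ cells did not hold without CD4+ replicate 1 (0.38, adjusted p = 0.0652) or 2 (0.37, adjusted p = 0.0682), after quantile normalization (0.26, adjusted p = 0.0594) and on averaging its probe sets (0.22, adjusted p = 0.127). Parp9 averaged 8.60 ± 0.16 and 8.26 ± 0.05 in CD49b+ and CD25+ cells (SD, n = 3 each), against 8.14 ± 0.17 (SD, n = 2) in CD4+ cells. The excess of CD49b+ over CD4+ cells was 0.46 ± 0.12 (adjusted p = 0.00777), which was not called without CD4+ replicate 2 (0.34, adjusted p = 0.079).

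Against CD25+ cells, Parp9 was higher in CD49b+ cells by 0.34 ± 0.10 (adjusted p = 0.0333). That call did not hold without CD49b+ replicate 1 (0.25, adjusted p = 0.109) or 3 (0.34, adjusted p = 0.0722), and without CD25+ replicate 1 (0.34, adjusted p = 0.0811), 2 (0.31, adjusted p = 0.083) or 3 (0.36, adjusted p = 0.0524). Parp12 averaged 6.20, 5.84 and 5.84 and Dtx3l 8.84, 8.74 and 8.57 in CD49b+, CD25+ and CD4+ cells of injected mice, and neither was called. Without CD49b+ replicate 2, Parp12 was higher in CD49b+ cells by 0.59 against both CD4+ (adjusted p = 0.00637) and CD25+ cells (adjusted p = 0.00799). Dtx3l was then higher by 0.32 against CD4+ cells (adjusted p = 0.0403). Dtx3l was also called there without CD4+ replicate 1 (0.39, adjusted p = 0.0325). The ubiquitin ligases Trim21, a cytosolic antibody receptor, and Trim25, which acts on the RNA sensor RIG-I, averaged 7.84, 8 and 7.75, and 8.65, 8.53 and 8.71, in the same groups. Neither was called in any comparison.

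Xaf1, a partner of the apoptosis inhibitor XIAP, averaged 9.97 ± 0.18 and 9.64 ± 0.08 in CD49b+ and CD25+ cells (SD, n = 3 each), against 9.41 ± 0.15 (SD, n = 2) in CD4+ cells of injected mice. Its level in CD49b+ cells exceeded that in CD4+ cells by 0.55 ± 0.12 (adjusted p = 0.00364). Its other probe set differed by -1.02 there, so that the direction was turned with the mean of both (-0.23, adjusted p = 0.338). Xaf1 was also higher in CD49b+ against CD25+ cells, by 0.33 ± 0.11 (adjusted p = 0.0444). This call did not hold without CD49b+ replicate 1 (0.23, adjusted p = 0.136) or 2 (0.37, adjusted p = 0.0577), and CD25+ replicate 1 (0.28, adjusted p = 0.137), 2 (0.33, adjusted p = 0.0797) or 3 (0.37, adjusted p = 0.0549). Ifi35 averaged 8.12 ± 0.09 and 8.17 ± 0.14 in the subsets (SD, n = 3 each), against 8.44 ± 0.09 (SD, n = 2) in CD4+ cells, and was lower in CD49b+ cells than in the CD4+ ones (-0.32 ± 0.10, adjusted p = 0.0236).

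Ifi35 was no longer called without CD4+ replicate 2 (-0.25, adjusted p = 0.151) or CD49b+ replicate 1 (-0.31, adjusted p = 0.0558) or 3 (-0.28, adjusted p = 0.0675), and with arrays centred on their medians (-0.13, adjusted p = 0.306). It was called lower in CD25+ than in CD4+ cells without CD25+ replicate 2 (-0.33, adjusted p = 0.0323). Rtp4, a receptor chaperone, averaged 8.85, 9.37 and 8.90 in CD49b+, CD25+ and CD4+ cells of injected mice and was not called. With the replicate number as a block it was lower in CD49b+ than in CD25+ cells (-0.52, adjusted p = 0.00482), as it was without CD49b+ replicate 1 (-0.69, adjusted p = 0.0207) or CD25+ replicate 3 (-0.68, adjusted p = 0.0216). Without CD25+ replicate 3, Rtp4 was also higher in CD25+ than in CD4+ cells (0.64, adjusted p = 0.036), as it was with the block (0.64, adjusted p = 0.00377).

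**Figure D4:**
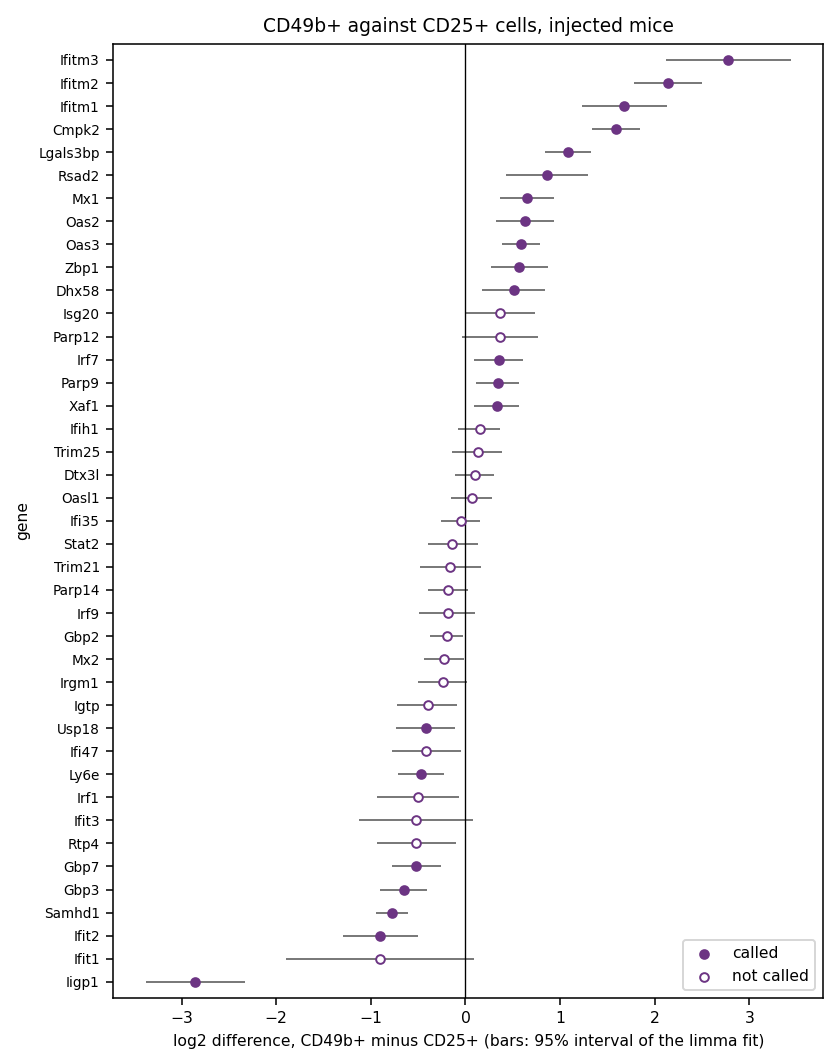
Log2 difference of each of the 41 tested members in CD49b+ minus CD25+ cells of injected mice, sorted by size, with the 95% interval of the limma fit; filled points are called and open points are not. The differences run from -2.86 for Iigp1 to 2.78 for Ifitm3, with Ifit2, Samhd1, Gbp3, Gbp7, Ly6e and Usp18 also called lower.

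The comparison of CD4+ cells of injected with those of naive mice addresses the injection itself. Without array weights or a replicate block, no member was called there by limma. At an unadjusted p under 0.05 there were 0 higher and 4 lower: Ifitm3 (-1.49 ± 0.36, adjusted p = 0.0951), Gbp3 (-0.57 ± 0.13, adjusted p = 0.0872), Ly6e (-0.54 ± 0.13, adjusted p = 0.0991) and Gbp2 (-0.24 ± 0.09, adjusted p = 0.315). With array weights, 0 were called higher and 2 lower, beside 26 and 302 of all genes tested. The replicate block called Ifit1 higher (1.2, adjusted p = 0.0447). It called Gbp3 (-0.57, adjusted p = 0.0229) and Ifitm3 (-1.49, adjusted p = 0.00637) lower, beside 57 higher and 320 lower calls over all genes. Same-numbered arrays of these groups deviated in opposite ways (correlation -0.21). Called differences of at least 2-fold numbered 0 in each direction, where 0% of all genes tested were higher and 0.616% lower. Over the 41 members, arrays of injected and naive mice did not overlap for 7 members that were higher (18.6% of all genes tested) and 16 that were lower (30% of all genes tested). Ifit1 averaged 6.56 ± 0.60 in injected and 5.36 ± 0.28 in naive mice (SD, n = 2 each), a difference of 1.2 with an interval from -0.01 to 2.42 (adjusted p = 0.411). Cmpk2 differed by -0.12 (interval from -0.42 to 0.19) and Samhd1 by 0.02 (interval from -0.19 to 0.23).

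With CD4+ cells of naive mice in place of those of injected mice, 6 of the 14 calls of higher members in CD25+ cells were lost: Ifih1 (0.31, adjusted p = 0.0591), Dhx58 (0.47, adjusted p = 0.054), Gbp2 (0.04, adjusted p = 0.733), Igtp (0.24, adjusted p = 0.262), Ifitm2 (0.47, adjusted p = 0.0705) and Lgals3bp (0.29, adjusted p = 0.102). In CD49b+ cells the call of Parp9 was lost (0.29, adjusted p = 0.0659). All of these kept their direction. Against naive mice, Ifit1 was called higher in CD49b+ (1.36, adjusted p = 0.0462) and in CD25+ cells (2.26, adjusted p = 0.00693), and Rtp4 higher in CD25+ cells (0.76, adjusted p = 0.0193). Ifi47 was called lower in CD49b+ (-0.53, adjusted p = 0.0367) and Ifi35 lower in CD25+ cells (-0.37, adjusted p = 0.0195).

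Genes upstream of the members, and further genes of the pathway, were read from lists. For the counts that follow, the shares of all genes tested that were higher and lower were 29.9% and 23.5% for CD49b+ against CD4+ cells. They were 20.8% and 17.8% for CD25+ against CD4+ cells. Between the subsets they were 17.5% and 12.4%. Of 8 interferon ligands, 5 had a probe set and 2 were tested. Ifng, the gene of interferon gamma, measured 9.91, 10.28 and 8.35 in CD49b+ cells, 7.97, 8.59 and 8.28 in CD25+ cells, 7.25 and 8.58 in CD4+ cells of injected mice and 7.95 and 8.03 in those of naive mice. The CD49b+ arrays overlapped both the CD25+ and the CD4+ arrays through replicate 3. Ifng was higher in CD49b+ than in CD4+ cells by 1.60 ± 0.53 (adjusted p = 0.0283), a call lost without CD4+ replicate 1 (0.93, adjusted p = 0.24) or CD49b+ replicate 1 (1.40, adjusted p = 0.079) or 2 (1.21, adjusted p = 0.0819). Against CD25+ cells it differed by 1.23 ± 0.47 (adjusted p = 0.0777), and it was called with the replicate number as a block (1.23, adjusted p = 0.021) and without CD49b+ replicate 3 (1.81, adjusted p = 0.00521).

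Of 5 receptor genes tested, 1 was higher and 0 lower in CD49b+ against CD4+ cells, 3 were higher and 0 lower for CD25+ against CD4+ cells, and 0 were higher and 3 lower in CD49b+ against CD25+ cells. Ifnar1, of the type I receptor, averaged 8.43 ± 0.04 and 8.90 ± 0.16 in CD49b+ and CD25+ cells (SD, n = 3 each), against 8.61 ± 0.00 (SD, n = 2) in CD4+ cells of injected mice. It was lower in CD49b+ than in CD25+ cells (-0.47 ± 0.09, adjusted p = 0.00256) and higher in CD25+ than in CD4+ cells (0.29 ± 0.10, adjusted p = 0.0386). The second of these was not called without CD4+ replicate 1 (0.29, adjusted p = 0.133) or 2 (0.28, adjusted p = 0.131) or CD25+ replicate 1 (0.20, adjusted p = 0.075). Ifngr1, of the interferon gamma receptor, was at a higher level in CD25+ than in CD4+ cells by 0.48 ± 0.13 (adjusted p = 0.0152), but not without CD4+ replicate 1 (0.42, adjusted p = 0.102). It differed by -0.44 ± 0.12 in CD49b+ against CD25+ cells (adjusted p = 0.0177), a call lost without CD49b+ replicate 3 (-0.37, adjusted p = 0.0661) or CD25+ replicate 1 (-0.37, adjusted p = 0.0682) or 2 (-0.38, adjusted p = 0.0564).

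Il10rb, shared by the receptors of interferon lambda and interleukin 10, averaged 8.89 ± 0.11 and 9.19 ± 0.06 in CD49b+ and CD25+ cells (SD, n = 3 each), against 8.57 ± 0.04 in CD4+ cells of injected and 9.04 ± 0.03 in those of naive mice (SD, n = 2 each). It was higher in CD49b+ (0.32 ± 0.08, adjusted p = 0.00979) and in CD25+ cells (0.63 ± 0.08, adjusted p = 0.000394) than in CD4+ cells of injected mice. It was lower in CD49b+ than in CD25+ cells (-0.30 ± 0.08, adjusted p = 0.0135) and in CD4+ cells after injection against naive ones (-0.47 ± 0.09, adjusted p = 0.0444). The call in CD49b+ against CD4+ cells did not hold without CD4+ replicate 2 (0.29, adjusted p = 0.0665). The call between injected and naive mice did not hold without replicate 1 (-0.50, adjusted p = 0.148) or 2 (-0.44, adjusted p = 0.197) of the injected or 1 (-0.49, adjusted p = 0.158) or 2 (-0.45, adjusted p = 0.434) of the naive group.

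**Figure D5:**
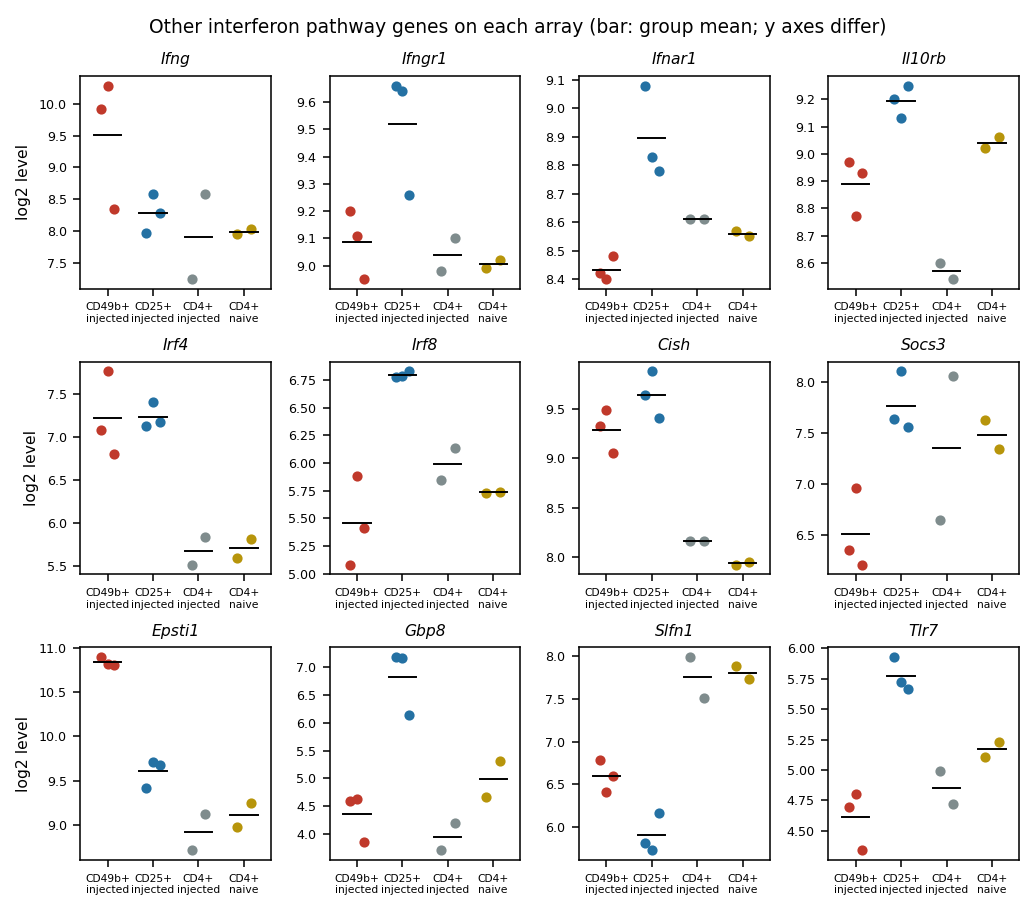
Log2 level of 12 other genes of the interferon pathway on each array (points) with the group mean (bar), from left to right CD49b+, CD25+ and CD4+ cells of injected mice and CD4+ cells of naive mice; the vertical axes differ. Irf4 and Cish are higher in both subsets, Epsti1 is highest in CD49b+ cells, and Gbp8, Irf8 and Tlr7 are highest in CD25+ cells.

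Of 15 signalling genes tested, 4 were higher and 3 lower in CD49b+ against CD4+ cells, 5 and 1 in CD25+ against CD4+ cells, 1 and 5 in CD49b+ against CD25+ cells, and 0 and 0 between injected and naive mice. Irf4, a factor of activated lymphocytes, was higher by 1.55 ± 0.24 in CD49b+ (adjusted p = 0.000553) and by 1.57 ± 0.24 in CD25+ cells (adjusted p = 0.000812) than in CD4+ cells. Cish, a feedback inhibitor of cytokine receptors, was higher by 1.12 ± 0.15 (adjusted p = 0.000216) and 1.48 ± 0.15 (adjusted p = 6.49e-05) in the same comparisons, and Jak2, a kinase of the interferon gamma receptor, by 0.57 ± 0.09 in CD49b+ cells (adjusted p = 0.000647). Irf8 averaged 5.46 ± 0.41 in CD49b+ and 6.80 ± 0.02 in CD25+ cells (SD, n = 3 each), against 5.99 ± 0.21 (SD, n = 2) in CD4+ cells, and was lower in CD49b+ than in CD25+ cells (-1.34 ± 0.17, adjusted p = 0.000295). Irf8 was also called lower in CD49b+ (-0.54, adjusted p = 0.0375) and higher in CD25+ cells (0.81, adjusted p = 0.00851) than in CD4+ cells. Against CD4+ cells of naive mice it was not called in CD49b+ cells (-0.28, adjusted p = 0.256). The call in CD49b+ cells did not hold without CD4+ replicate 1 (-0.69, adjusted p = 0.0501) or 2 (-0.39, adjusted p = 0.221) or CD49b+ replicate 1 (-0.35, adjusted p = 0.0918) or 3 (-0.52, adjusted p = 0.0823), and that in CD25+ cells without CD4+ replicate 1 (0.66, adjusted p = 0.077).

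In CD49b+ against CD25+ cells, Irf5 (-0.45 ± 0.11, adjusted p = 0.0105), Pias1, an inhibitor of cytokine signalling (-0.47 ± 0.08, adjusted p = 0.00183), and Socs3, a feedback inhibitor (-1.26 ± 0.33, adjusted p = 0.0168), were lower. The Socs3 call did not hold without CD49b+ replicate 1 (-1.18, adjusted p = 0.0519) or 3 (-1.11, adjusted p = 0.0609) or CD25+ replicate 2 (-1.08, adjusted p = 0.0546). Irf5 was at a higher level in CD25+ than in CD4+ cells by 0.66 ± 0.12 (adjusted p = 0.00197), but was not called against those of naive mice (0.28, adjusted p = 0.101). Cish differed by -0.36 between CD49b+ and CD25+ cells and was called there with the replicate number as a block (adjusted p = 0.00521, against 0.0716 without it), without CD49b+ replicate 2 (-0.46, adjusted p = 0.042) and without CD25+ replicate 3 (-0.47, adjusted p = 0.0253).

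Of 11 genes of nucleic acid sensing tested, 5 were higher and 1 lower in CD49b+ against CD4+ cells, 3 and 1 in CD25+ against CD4+ cells, 3 and 2 in CD49b+ against CD25+ cells, and 0 and 0 between injected and naive mice. Tlr7, a sensor of single-stranded RNA, was at a higher level in CD25+ than in CD4+ cells (0.91 ± 0.15, adjusted p = 0.00104) and lower in CD49b+ than in CD25+ cells (-1.16 ± 0.13, adjusted p = 0.000146). The adaptors Myd88 (0.55 ± 0.12, adjusted p = 0.00453) and Mavs (0.51 ± 0.14, adjusted p = 0.0138) and the DNA sensing adaptor Sting1 (0.47 ± 0.13, adjusted p = 0.0125) were higher and the kinase Ikbke (-0.77 ± 0.12, adjusted p = 0.000677) lower in CD49b+ cells than in the CD4+ ones. Mavs was not called without CD4+ replicate 1 (0.54, adjusted p = 0.0521) or 2 (0.49, adjusted p = 0.0704), and Sting1 not without CD4+ replicate 2 (0.42, adjusted p = 0.0782).

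In CD25+ against CD4+ cells, Sting1 (0.50 ± 0.13, adjusted p = 0.0126) and the adaptor Ticam1 (0.28 ± 0.09, adjusted p = 0.0382) were higher and the DNA sensor Cgas (-0.33 ± 0.11, adjusted p = 0.0356) lower. Sting1 did not hold without CD4+ replicate 2 (0.45, adjusted p = 0.0802). Ticam1 did not hold without CD4+ replicate 1 (0.19, adjusted p = 0.257) or CD25+ replicate 1 (0.26, adjusted p = 0.0806) or 2 (0.25, adjusted p = 0.0864). Cgas did not hold without CD4+ replicate 1 (-0.31, adjusted p = 0.15) or 2 (-0.35, adjusted p = 0.101) or CD25+ replicate 1 (-0.28, adjusted p = 0.0909) or 2 (-0.33, adjusted p = 0.0641). In CD49b+ against CD25+ cells, Mavs (0.65 ± 0.13, adjusted p = 0.00404), Cgas (0.64 ± 0.10, adjusted p = 0.000851) and Myd88 (0.46 ± 0.11, adjusted p = 0.0121) were higher. Against CD4+ cells of naive mice, Sting1 was called in neither CD49b+ (0.12, adjusted p = 0.468) nor CD25+ cells (0.16, adjusted p = 0.387). Mavs was then not called in CD49b+ cells (0.35, adjusted p = 0.0722), where Tlr7 was called lower (-0.56, adjusted p = 0.0115). In CD25+ cells Ticam1 (0.15, adjusted p = 0.235) and Cgas (-0.26, adjusted p = 0.0871) were not called.

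Among 37 further interferon-stimulated genes tested, 10 were higher and 9 lower in CD49b+ against CD4+ cells, 9 and 5 in CD25+ against CD4+ cells, 5 and 7 in CD49b+ against CD25+ cells, and 0 and 0 between injected and naive mice. In CD49b+ against CD4+ cells the shares of this list were near those of all genes tested (29.9% and 23.5%). Epsti1 was higher in CD49b+ than in CD4+ (1.93 ± 0.14, adjusted p = 5.06e-06) and CD25+ cells (1.24 ± 0.12, adjusted p = 6.74e-05). Ifi204, a DNA-binding protein, was lower in CD49b+ cells, with differences of -1.59 ± 0.31 (adjusted p = 0.00204) and -1.21 ± 0.28 (adjusted p = 0.00895), as was Tgtp1, another IRG, with -1.16 ± 0.17 (adjusted p = 0.00039) and -1.28 ± 0.15 (adjusted p = 0.000199), in these comparisons. Gbp8 was at a higher level in CD25+ than in CD4+ cells by 2.87 ± 0.35 (adjusted p = 0.000224) and lower in CD49b+ than in CD25+ cells (-2.47 ± 0.32, adjusted p = 0.00031). Both may be lower bounds, since CD49b+ and CD4+ cells averaged under the array medians. Irgm2, another IRG, was at a higher level in CD25+ than in CD4+ cells (1.14 ± 0.26, adjusted p = 0.00703). That call did not hold without CD4+ replicate 2 (0.81) or against CD4+ cells of naive mice (0.73, adjusted p = 0.0543).

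Of the Schlafen genes, Slfn1 and Slfn2 are known to keep mouse T cells quiescent. Slfn1 was lower in both subsets than in CD4+ cells of injected mice, and Slfn2 in CD25+ cells. Slfn1 differed by -1.15 ± 0.18 in CD49b+ (adjusted p = 0.000499) and by -1.85 ± 0.18 in CD25+ cells (adjusted p = 4.76e-05) against CD4+ cells, and Slfn2 by -1.03 ± 0.21 in CD25+ cells (adjusted p = 0.00382). In CD49b+ against CD4+ cells Slfn2 was called only in some alternatives, such as after quantile normalization (-0.60, adjusted p = 0.0374). In CD49b+ against CD25+ cells both were higher, Slfn1 by 0.69 (adjusted p = 0.00845) and Slfn2 by 0.57 (adjusted p = 0.0445). That Slfn2 call did not hold after quantile normalization (0.52, adjusted p = 0.062).

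The identity of the cells was read from marker lists. Of 5 T cell genes, Cd3e, Cd3d, Cd3g and Cd4 lay above the array median on all arrays, and Tcra, a T cell receptor gene, lay under it on all arrays. The transcript of the sort marker CD25, Il2ra, averaged 6.29 in CD49b+ and 8.83 in CD25+ cells, against 4.17 in CD4+ cells of injected mice. That of CD49b, Itga2, averaged 5.78 and 5.47, against 5.82, and was not called in CD49b+ against CD4+ cells (-0.05, adjusted p = 0.717). Itga2 was higher in CD49b+ than in CD25+ cells (0.31, adjusted p = 0.0349) and lower in CD25+ than in CD4+ cells (-0.36, adjusted p = 0.0247). The summed level of 10 myeloid genes was 7.96 to 8.18 in CD49b+, 8.38 to 8.88 in CD25+, 8.92 to 9.03 in CD4+ cells of injected and 9.65 to 9.93 in those of naive mice, with Lyz2, Itgam and Cd14 under the median on all arrays. That of 9 natural killer cell genes was 9.04 to 9.55, 8.18 to 8.44, 8.69 to 8.75 and 8.85 to 8.94 in the same order, with Klra8 under the median on all arrays. Of the 7 tested, 4 were higher and 2 lower in CD49b+ than in CD4+ cells. Gzma (3.97, adjusted p = 2.73e-06), Ncr1 (0.65, adjusted p = 0.0301), Klrk1 (0.53, adjusted p = 0.00421) and Fcgr3 (0.29, adjusted p = 0.0374) were higher. The values of Gzma, Ncr1 and Fcgr3 may be lower bounds, since CD4+ cells averaged under the array median. Prf1 (-1.10, adjusted p = 3.07e-05) and Eomes (-0.91, adjusted p = 5.28e-05) were lower. The summed level of 6 genes of plasmacytoid dendritic cells, which produce type I interferon, was 9.48 to 9.83, 9.28 to 9.73, 8.67 to 8.73 and 8.63 to 8.64 in that order of groups, with Spib under the median on all arrays. Of the 5 tested, 1 was higher and 2 lower in CD49b+ against CD4+ cells, with a median of -0.18. In CD25+ cells 3 were higher and 0 lower. Ccr9, a chemokine receptor that T cells also carry, was higher in CD49b+ (2.97, adjusted p = 5.04e-05) and CD25+ cells (1.76, adjusted p = 0.00188), and Irf8 and Tcf4 in CD25+ cells. Pacsin1 (-0.87, adjusted p = 0.000235) and Irf8 were lower in CD49b+ than in CD4+ cells.

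The summed level of 7 B cell genes was 7.61 to 7.63 in CD49b+, 7.92 to 8.06 in CD25+, 7.78 to 7.93 in CD4+ cells of injected and 8.33 to 8.44 in those of naive mice, with Ms4a1, Ighm and Pax5 under the median on all arrays. The lists of neutrophils (7.25 to 7.45 over all arrays), platelets (6.86 to 7.28), CD8 T cells (5.38 to 5.72) and erythroid cells (6.70 to 7.38) differed less. Array medians were 4.61 to 4.65 in the subsets and 4.79 to 4.81 in the CD4+ groups. The 3′ minus 5′ difference of Gapdh, a sign of RNA quality, was 0.46 ± 0.23 in CD49b+ and 0.52 ± 0.13 in CD25+ cells (SD, n = 3 each), against 0.20 ± 0.09 in CD4+ cells of injected and 0.02 ± 0.05 in those of naive mice (SD, n = 2 each). The part of these values in the members' differences was not tested.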

How the data were processed

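The deposited values are log2 expression levels of 45141 probe sets on 10 Affymetrix M430v2 arrays, made by the authors with GCRMA and Expression Console (version 1.2.1), as the submitters' processing notes give it. Joint or separate normalization of the arrays is not stated, and the number of arrays limits the precision. Probe sets were named through the platform annotation: 28898 had 1 gene symbol, 551 several and 15588 none, and only those with 1 symbol were used.

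From these values, 1 probe set was taken for each gene, that of highest mean. Testing required a level above the 50th percentile of the array on 2 arrays or more. Group means of the 4 groups were fitted with limma 3.58.1 in R 4.3.3 (lmFit and eBayes, 6 residual degrees of freedom), and p-values were adjusted by Benjamini-Hochberg over 11037 genes. The fit was tested on simulated data. Replicate numbers come from the sample titles. Same-numbered CD49b+ and CD25+ arrays deviated together, with correlations of 0.16, 0.37 and 0.64. Those of CD25+ and CD4+ cells of injected mice gave 0.24 and 0.53, and those of CD49b+ and CD4+ cells 0.09 and 0.52. Differently numbered arrays gave -0.50 to 0.13 between the subsets. However, CD4+ replicate 1 correlated more with replicate 3 of CD49b+ (0.45) and CD25+ cells (0.31) than with their replicate 1. Whether the numbers mark pairs is thus open, above all for the CD4+ arrays. Blocked values stand beside the comparison of the subsets where a call changed, and beside those against CD4+ cells where a member gained a call. Alternatives covered the filter, normalization, probe sets, moderation, array weights, the replicate block, the groups in the fit, the comparator and each array left out.

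The members and lists were chosen with earlier results of these data known. Every member was named. Members were given array by array if they were among the 6 called ones with the largest difference in a comparison or were called in opposite directions, and Ifit1 and Ifng were added after their values were seen, as were Klrk1 and Fcgr3 among the marker genes. Of each other pathway list, up to 4 called genes with the largest difference per comparison were named. Sequences are from RefSeq (GRCm38.p6).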

Additional observations from a re-analysis of the deposited data

Results flagged for a closer look

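For 3 members, CD49b+ and CD25+ cells were called in opposite directions against CD4+ cells of injected mice. The difference between the subsets spans both of these differences, so for genes picked this way it is no separate evidence. It was 0.59 for Oas3 (adjusted p = 0.000914), -2.86 for Iigp1 (adjusted p = 1.86e-05) and -0.78 for Samhd1 (adjusted p = 6.1e-05) in CD49b+ against CD25+ cells on the log2 scale, by limma. The arrays of the subsets did not overlap for any of these 3 genes, which the same choice favours. The opposite calls share the 2 CD4+ arrays. Those of Iigp1 held in all alternatives. Both of Oas3 were lost with only the arrays of the 2 groups (0.27, adjusted p = 0.0786 in CD49b+ and -0.31, adjusted p = 0.0578 in CD25+ cells), among other settings. That of Samhd1 in CD49b+ cells was lost with each array centred on its median (-0.13, adjusted p = 0.224). The other probe set of Samhd1 differed there by -0.10 and was not called.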

How the results depend on the processing

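Of the members called, 15 of 23 in CD49b+ against CD4+ cells, 9 of 16 in CD25+ against CD4+ cells and 16 of 21 in CD49b+ against CD25+ cells were called in all alternatives. Leaving out 1 array at a time gave 15 to 20 higher and 3 to 6 lower members with medians of 0.08 to 0.36, 11 to 15 higher and 1 to 3 lower with medians of 0.24 to 0.29, 10 to 13 higher and 6 to 11 lower with medians of -0.09 to 0.01, and 0 higher and 0 lower with medians of -0.19 to -0.04 between injected and naive mice. With each array centred on its median, lower members numbered 2 for CD49b+ and 1 for CD25+ cells, each against CD4+ cells, with medians of 0.35 and 0.39. That centring moved the median of all genes to 0.22 and 0.18 and the share of higher calls to 78.3% and 78.6%, against 56% and 53.9% without it, and lower calls over all genes to 1357 and 1076, against 2592 and 1964. In CD25+ against CD4+ cells, lower members numbered 0 with the filter at the 70th percentile and 1 with only the arrays of the 2 groups. Lower calls over all genes then numbered 699 and 1478. With no filter, lower calls over all genes numbered 5597 and 4981, and higher calls were 38.6% and 34.3% of the calls, and with the 70th percentile 69.4% and 72%. Xaf1 in CD49b+ against CD4+ cells turned to -0.23 with the mean of its probe sets, which disagree, and Il10rb to -0.15 with CD4+ cells of naive mice as comparator. The causes of the other changes were not tested.

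With the replicate block, the members called in CD49b+ against CD4+ cells gained Ifi47 and lost Oas3. Those in CD25+ against CD4+ cells gained Ifit1 (1.49, adjusted p = 0.00161), Ifit3 (0.81, adjusted p = 0.0251), Irf1 (0.39, adjusted p = 0.0348), Rtp4 (0.64, adjusted p = 0.00377) and Ifitm3 (0.63, adjusted p = 0.0278). Lower members in CD49b+ against CD25+ cells numbered 12, beside 1677 lower calls over all genes, against 1371 without the block. Between injected and naive mice, 1 higher and 2 lower members were called, where array weights called 2 lower. Over all genes, that last comparison gave 57 higher and 320 lower calls with the block, 26 and 302 with array weights and 0 and 0 with only its own arrays, against 3 and 150. Same-numbered arrays of these 2 groups deviated in opposite ways (correlation -0.21). The crossed pairing, chosen after seeing the data, called 1 higher and 3 lower members, beside 97 and 429 over all genes.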
